A study of Mus musculus with 2 samples.

Results

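The genes described here are Igf1 and Igf2, which encode the insulin-like growth factors, and Igfbp2, Igfbp3, Igfbp4, Igfbp5, Igfbp6 and Igfbp7, which encode secreted proteins that bind them. They were taken by name, as the rows that match these symbols by Ensembl identifier, and all 8 were found among the 32285 genes that both tables list. Their RNA was counted in mesenchymal cells of the mouse colon, sorted for gp38 (podoplanin, found on fibroblasts) after removal of CD45+ leukocytes, EpCAM+ epithelium and CD31+ endothelium, by 10x 3' v3.1 single-cell sequencing. The C57BL/6 library is called ff and the Balb/c library GF, as in the labels. The series speaks of adults more than 8 weeks of age and of germ-free animals. No allele or treatment is given for either library, and the number of animals pooled and the meaning of ff are not given in the sources used here. Strain, germ-free status and library cannot be told apart, and with 1 library per group no difference between the libraries has a replicate check or a test.

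Insulin-like growth factors are small secreted hormones that act through the receptor encoded by Igf1r, and they reach tissues both from the liver and from local mesenchymal cells. Binding proteins hold the growth factors outside the cell, which prolongs their life and limits or directs their access to the receptor, and proteases release the growth factors by cutting the binding proteins. In the gut wall, fibroblasts and smooth muscle are known local sources of both, beside an epithelium that renews itself and carries the receptor.

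After filtering, 12164 ff and 14299 GF cells remained, with medians of 8862 and 6351 UMIs (unique molecular identifiers, 1 per captured transcript). Collagen-rich clusters formed a fibroblast-like pool of 11700 ff and 12501 GF cells, 96.2% and 87.4% of the cells. Within it, 3 clusters were named Foxl1-high-like (cells under the epithelium that express the transcription factor Foxl1), 1 lamina propria-like, 2 adventitial-like and 2 trophocyte-like (Grem1-expressing cells near the crypt base), each from at least 3 marker genes. The Foxl1-high-like clusters (2114 ff and 1041 GF cells) held 11, 9 and 10 of 13 listed markers, the lamina propria-like cluster (1007 and 1271 cells) 4 of 6, the adventitial-like clusters (1179 and 1890 cells) 5 and 7 of 7, and the trophocyte-like clusters (1396 and 1054 cells) 5 and 4 of 6. The other collagen-rich clusters (6004 and 7245 cells) matched no list by the rule and are called unnamed fibroblast-like, each known by its leading gene. Among them, the Col6a5-led cluster (631 and 1042 cells) was led by Col6a5 and Adamdec1, both on the lamina propria list. Lamina propria-like below therefore means the Cd36-led cluster alone, unless another resolution is named. Gating cells one by one on collagen UMIs gave 11703 ff and 12461 GF cells, of which 98.1% and 96.7% were in this pool. The sorted marker gp38 (Pdpn) stood at 274 and 339 UMIs per 1000000 (CPM) in the ff and GF pools, while Ptprc (CD45), Epcam and Pecam1 (CD31) lay between 0.123 and 1.46 CPM. The libraries shared 55 barcodes. Lymphocyte-like cells, 87 in ff with a median of 4145 UMIs and 1218 in GF with a median of 2574, serve below as a reference. They are not expected to make the fibroblast genes, yet Col3a1 stood at 890 CPM in the ff and 84.9 CPM in the GF ones. In the pools it stood at 5035 and 4225 CPM. The reference is therefore higher in ff, and free RNA and mixed cells were not told apart in it.

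Levels are UMIs of a gene per 1000000 UMIs of the summed cells, with exact 95% Poisson intervals that cover counting error only. Each transcript is counted once at its 3' end, so levels of different genes are set side by side without a correction for length. Whether all genes are captured equally well was not tested. Ratios are log2 of GF over ff after adding 1 CPM, and their intervals are exact binomial intervals of the ratio without that addition. Shares of cells with a UMI are given after thinning each cell to 2000 UMIs, with the share before thinning in parentheses.

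Igf1, the main growth factor of postnatal life, was more abundant than Igf2 in each fibroblast class and in smooth muscle-like cells. Its gene lies at chr10:87858265-87937042 on the plus strand of GRCm38. In the pool it stood at 122 CPM for ff (120.2 to 124) and 107 CPM for GF (105 to 109), a log2 ratio of -0.19. No single order of the classes held in both libraries. In ff the trophocyte-like cells had the highest class level in the pool at 280.2 CPM, followed by adventitial-like cells at 164, unnamed cells at 111, lamina propria-like cells at 92.2 and Foxl1-high-like cells at 67.8, with no neighbouring intervals overlapping. In GF the Foxl1-high-like cells were highest at 154 CPM, trophocyte-like cells stood at 122 and adventitial-like cells were lowest at 77.3. The GF lamina propria-like and unnamed cells, at 109 and 106 CPM, had overlapping intervals, and the lamina propria-like interval also overlapped the trophocyte-like one. Smooth muscle-like cells, outside the pool, exceeded all of these at 327 CPM for ff and 313 CPM for GF.

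Within classes, the log2 ratio of Igf1 was 1.17 in Foxl1-high-like cells (1.07 to 1.30), 0.24 in lamina propria-like cells, -1.07 in adventitial-like cells (-1.19 to -0.97) and -1.20 in trophocyte-like cells (-1.32 to -1.09). The share of Foxl1-high-like cells with an Igf1 UMI after thinning was 9.90% in ff and 24.4% in GF (29.7% and 49.2%), against 2.30% and 0.197% of lymphocyte-like cells. Trophocyte-like cells showed the opposite order, with 35.1% in ff and 17.6% in GF (62.5% and 34.1%). Each of the 3 Foxl1-high-like clusters was higher in GF: the Wif1-led one stood at 75.0 and 164 CPM for ff and GF, the Nrg1-led one at 18.1 and 57.5 and the Fgfbp1-led one at 126 and 188. Adventitial-like cells were divided differently in the libraries, since the Pi16-led cluster held 61.1% of them in ff and the Efhd1-led cluster 51.2% in GF. Igf1 was lower in GF inside both, with a log2 ratio of -0.51 in the Pi16-led and -1.88 in the Efhd1-led cluster. Coarser clustering (Leiden resolution 0.5) gave the adventitial-like class a ratio of -2.01, and put it below the other ff pool cells, with a log2 ratio over them of -0.37 instead of 0.47. Among the unnamed clusters Igf1 reached 293 CPM in the ff Ntrk3-led cells and 294 CPM in the GF Myoc-led cells, the highest fibroblast values of each library. There were 16 fibroblast-like clusters that had 50 or more cells from both libraries, and Igf1 was at least 1.5-fold higher in GF in 2 and at least 1.5-fold lower in 6.

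Igf2, the growth factor of fetal life, whose gene is imprinted and largely silenced after birth, was scarce in both libraries. The gene spans chr7:142650766-142666816 on the minus strand. It gave 1105 UMIs or 10.5 CPM for the ff pool (9.84 to 11.1) and 292 UMIs or 3.35 CPM for the GF pool (2.97 to 3.75), a log2 ratio of -1.40 and of -1.64 with no pseudocount (-1.83 to -1.46). The ff level was higher in all 5 fibroblast classes. It stood at 15.04 and 0.633 CPM in trophocyte-like cells of ff and GF, 9.18 and 1.24 in adventitial-like, 14.8 and 4.72 in lamina propria-like, 9.89 and 4.04 in unnamed and 7.83 and 3.66 in Foxl1-high-like cells. The trophocyte-like value in GF rests on 4 UMIs. Over the 16 clusters Igf2 was at least 1.5-fold lower in GF in 15 and lower by less in the Nrg1-led cluster, and the interval lay below 0 in 12. Thinned shares of pool cells with an Igf2 UMI were 2.15% and 0.669% (7.39% and 2.04%), against 0% of 87 ff and 0.0987% of 1013 GF lymphocyte-like cells. The exact 95% interval of the ff lymphocyte-like share reached 4.15%. Smooth muscle-like cells held higher levels than any fibroblast class, 51.7 CPM for ff and 23.2 CPM for GF, and the difference between libraries had the same direction there. The antisense gene Igf2os overlaps Igf2 on the opposite strand and gave 8 and 3 UMIs in the pools, and H19, the neighbouring imprinted RNA, gave 53 and 12. Of 11 measured Igf2 RNA binders and genes of the imprinted network, 2 were at least 1.5-fold lower in GF and none was at least that much higher, with a median log2 ratio of -0.14. Over all genes measured in the pool, 5.49% were at least 1.5-fold lower and 4.91% at least 1.5-fold higher. The count depends on the 1 CPM added. H19 and Dlk1, also of this list, were not counted as lower, but their intervals without it were -2.91 to -0.94 and -2.86 to -1.07, on few UMIs.

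**Figure D1:**
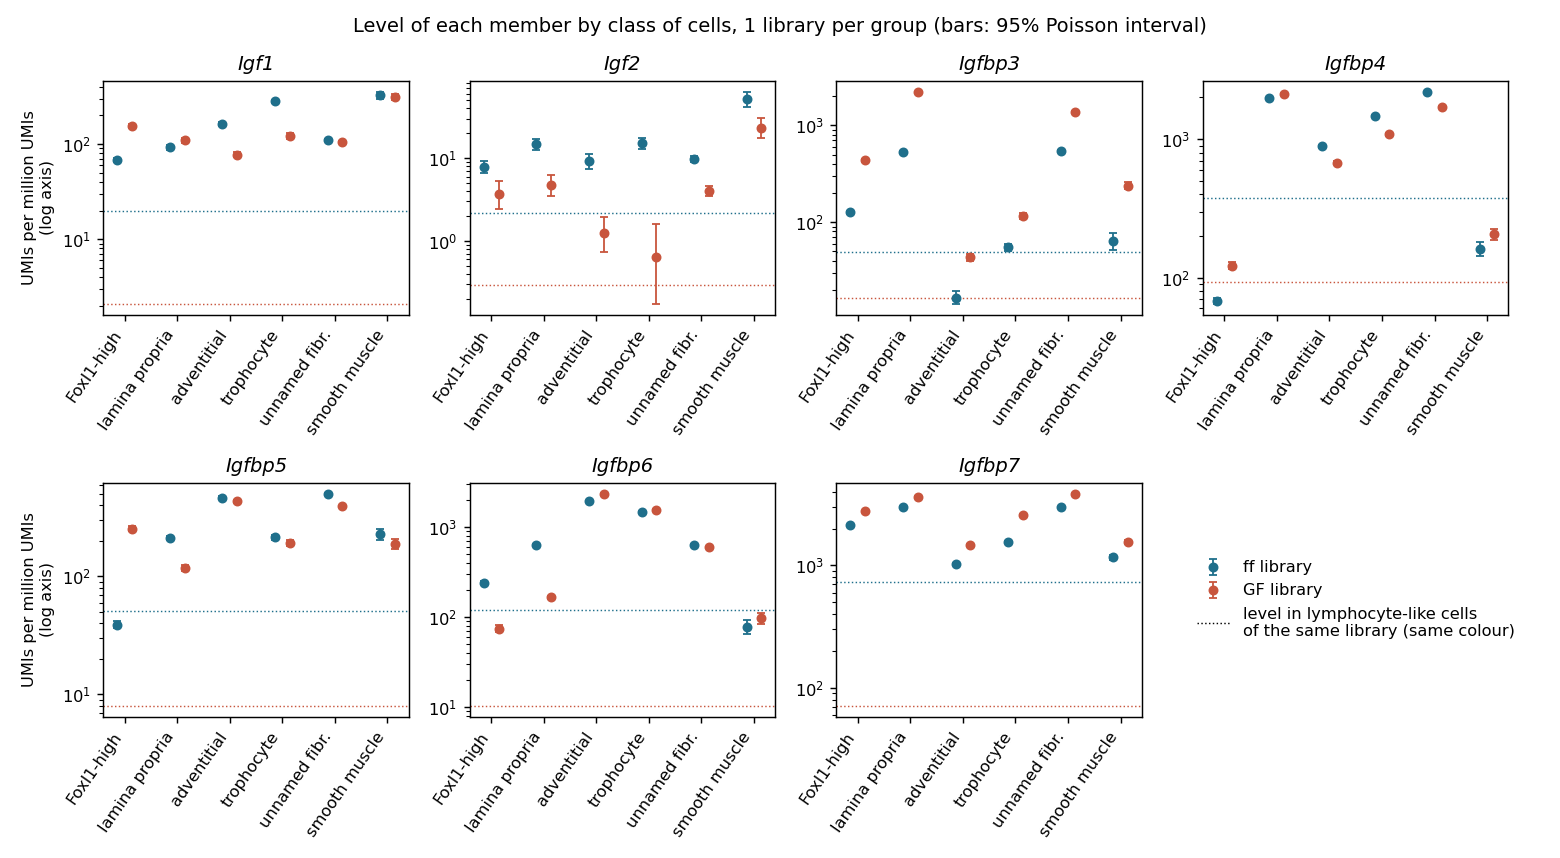
UMIs per 1000000 UMIs (log axis) of 7 members in 6 classes of cells, with points for the ff and GF libraries, bars for the 95% Poisson interval and dotted lines for the lymphocyte-like cells of the same library; Igfbp2 is left out because it gave too few UMIs. Igfbp3 is highest in lamina propria-like and unnamed cells, Igfbp6 in adventitial-like and trophocyte-like cells, and Igfbp4 is lowest in Foxl1-high-like cells, in both libraries.

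UMIs of the binding protein genes far outnumbered those of the ligand genes. Their summed level was 5594 CPM for the ff pool and 6912 CPM for the GF pool, or 42.1 and 62.7 binding protein UMIs for each UMI of Igf1 and Igf2. Over the fibroblast-like clusters of both libraries this ratio ran from 16.02 in the ff Angptl1-led to 195 in the GF Stmn2-led cells. Adventitial-like cells, with the division between clusters given above, went from 25.1 in ff to 63.5 in GF, trophocyte-like cells from 16.2 to 45.5, and Foxl1-high-like cells the other way, from 34.4 to 23.1. Smooth muscle-like cells, at 4.47 and 6.83, were below every fibroblast-like cluster. RNA counts say nothing of how much protein was made or bound.

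Igfbp7, which encodes a matrix-bound relative with weak affinity for the growth factors, was the most abundant member in the pool. Its gene lies at chr5:77349240-77408041 on the minus strand. The pool level was 2515 CPM for ff (2505 to 2525) and 3229 CPM for GF (3217 to 3241), and thinned shares of cells with a UMI were 94.2% and 95.3% (98.2% and 97.8%), against 18.4% and 6.81% of lymphocyte-like cells. It was also the most even of the 7 measured members, since the highest fibroblast cluster exceeded the lowest by 4.72-fold in ff and 4.07-fold in GF. Adventitial-like cells were lowest, at 1035 CPM for ff and 1479 CPM for GF. Foxl1-high-like cells stood at 2129 and 2766 CPM, where Igfbp7 made up 81.7% and 75.7% of all binding protein UMIs. Blood endothelium-like cells, with 40 ff and 28 GF cells, exceeded the fibroblast clusters at 5772 CPM for ff and 5389 CPM for GF. GF over ff, the log2 ratio was 0.36 in the pool, at least 1.5-fold higher in 5 of 16 clusters and in none at least 1.5-fold lower, with the Myoc-led cells at 2054 CPM for ff and 4252 CPM for GF. Polr2b, which overlaps Igfbp7 on the opposite strand, gave 3072 and 2186 UMIs in the pools against 265891 and 281670 for Igfbp7, and the sources used here do not state whether the authors counted by strand.

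Igfbp4, a binding protein mostly described as an inhibitor of growth factor action, was abundant in every fibroblast class except the Foxl1-high-like cells. The gene is at chr11:99041244-99054392 on the plus strand. Its pool level was 1580.3 CPM for ff and 1395 CPM for GF, a log2 ratio of -0.18 that was 0.12 over the named clusters alone. Foxl1-high-like cells held 68.0 CPM for ff (64.3 to 71.7) and 122 CPM for GF (115 to 130.3), against 1968 CPM for ff and 2136 CPM for GF in lamina propria-like cells, 2191 and 1721 in unnamed cells, 1459.5 and 1088 in trophocyte-like cells and 887 and 678 in adventitial-like cells. This set the Foxl1-high-like class apart by a log2 ratio over the other pool cells of -4.80 in ff and -3.63 in GF, or of -3.54 and -2.76 with doublets kept. The class contained 18.4% of the pool's UMIs in ff and 9.08% in GF, but 0.790% and 0.797% of its Igfbp4. The Foxl1-high-like level lay below that of lymphocyte-like cells in ff (379 CPM) and above it in GF (93.8 CPM). The GF reference mixed B or plasma-like cells at 27.0 CPM with T or innate lymphoid-like cells at 158 CPM, and the Foxl1-high-like level lay between these. The thinned share of Foxl1-high-like cells with a UMI was 9.95% and 15.3% (32.7% and 34.8%), against 19.5% and 12.8% of lymphocyte-like cells. The ff share lay below that reference, so Igfbp4 in ff Foxl1-high-like cells was not told apart from background. The lymphocyte-like types differed among themselves, since 22.7% of GF T or innate lymphoid-like and 2.96% of GF B or plasma-like cells had a UMI (27.3% and 5.04%). Within the pool the highest levels were in the Cx3cr1-led and Stmn2-led clusters, at 2723 CPM for ff and 2147 CPM for GF for the former and 2639 CPM for ff and 2347 CPM for GF for the latter. By fold the top genes of the Cx3cr1-led cluster were the haemoglobin genes Hbb-bs, Hba-a2 and Hba-a1, which the choice of a leading gene leaves out.

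Igfbp6, whose protein binds the second ligand, Igf2, in preference to Igf1, was highest by class in adventitial-like and trophocyte-like cells. Some unnamed clusters reached similar levels. Its gene is at chr15:102144362-102149511 on the plus strand. The pool level was 776 CPM for ff and 878 CPM for GF. Adventitial-like cells stood at 1938 CPM for ff and 2353 CPM for GF, trophocyte-like cells at 1491 and 1571, lamina propria-like cells at 640.0 and 166 and Foxl1-high-like cells at 243 and 74.9. Unnamed cells stood at 643 and 596 CPM as a class. Among them the Myoc-led cluster held 1981 CPM for ff and 2020 CPM for GF, and the Ntrk3-led cluster 1417 and 1892. The Pi16-led adventitial-like cluster, at 1754 and 1996 CPM, lay below the Myoc-led one in both libraries. The adventitial-like cells, mostly Pi16-led in ff and Efhd1-led in GF, were the highest class in each library, with a log2 ratio over the other pool cells of 1.58 and 2.06. Their 47.1% of the GF pool's Igfbp6 came from 17.6% of its UMIs. The Efhd1-led cluster had the highest values, 2202 CPM for ff and 2622 CPM for GF, and the Fgfbp1-led Foxl1-high-like cluster the lowest, 56.1 and 28.0. One Foxl1-high-like cluster of ff departed from its class, since the Nrg1-led cells stood at 873 CPM for ff and 237 CPM for GF while the Wif1-led cells stood at 77.2 and 56.5. Lymphocyte-like cells stood at 119 CPM for ff, above the Wif1-led and Fgfbp1-led cells, and at 10.4 CPM for GF, below both.

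The pool ratio of Igfbp6 did not hold across the classes. GF over ff, the log2 ratio was 0.18 in the pool, and -0.16 when the GF clusters were weighted by their ff cell shares. It was 0.28 in adventitial-like cells and 0.08 in trophocyte-like cells, against -1.94 in lamina propria-like cells (-2.02 to -1.87) and -1.68 in Foxl1-high-like cells (-1.82 to -1.57), the latter -0.99 with doublets kept. The Nrg1-led cluster held 3568 of the 4714 ff Foxl1-high-like UMIs of Igfbp6, and the log2 ratio was -1.88 in it, -0.44 in the Wif1-led and -0.97 in the Fgfbp1-led cluster. Igfbp6 was at least 1.5-fold lower in GF in 7 of 16 clusters and at least that much higher in none. In the lamina propria-like cells the thinned share with a UMI was 61.6% in ff and 24.2% in GF (90.3% and 50.7%), both above the 4.60% and 1.88% of lymphocyte-like cells.

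Igfbp3, whose protein is the main carrier of growth factors in blood and also binds cells and matrix, was the member that differed most toward GF in the pool. The gene is at chr11:7206086-7213923 on the minus strand, beside Igfbp1, which gave no UMI in the pools. Its pool level was 369.7 CPM for ff (366 to 373) and 1069 CPM for GF (1062 to 1076), a log2 ratio of 1.53. Of 8 members, 7 reached 50 UMIs in the pool, and among these Igfbp3 was the only one at least 1.5-fold higher in GF, and Igf2 the only one at least 1.5-fold lower. Over all 14796 genes measured the same way, 4.91% were at least 1.5-fold higher and 5.49% at least 1.5-fold lower. The median log2 ratio was -0.05 over the 7 members and 0.02 over all genes.

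Igfbp3 was higher in GF in each fibroblast class and in most clusters. Lamina propria-like cells stood at 532 CPM for ff and 2207 CPM for GF, and the thinned share with a UMI was 44.6% and 88.0% (75.2% and 97.0%), against 3.45% and 3.16% of lymphocyte-like cells. Unnamed cells stood at 547 and 1389.7 CPM and Foxl1-high-like cells at 126 and 435 CPM. Cells with at least 10 Igfbp3 UMIs, a level chosen after the values were seen, were 20.4% of ff and 62.6% of GF lamina propria-like cells, whose median depths were 10774 and 7586 UMIs. Igfbp3 was at least 1.5-fold higher in GF in 12 of 16 clusters. The widest gap was in the Nrg1-led cells at 55.5 CPM for ff and 559 CPM for GF, a log2 ratio of 3.31. The exceptions included the Npy1r-led trophocyte-like cells, 32 and 14 UMIs with a log2 ratio of -1.39, and the Ntrk3-led (-0.40) and Myoc-led (0.43) cells. Trophocyte-like cells as a class stood at 55.1 CPM for ff and 115 CPM for GF, with a ratio of 1.04 on the log2 scale, and -0.26 under finer clustering (Leiden resolution 2). Smooth muscle-like cells stood higher in GF too, at 63.3 CPM for ff and 237 CPM for GF. Adventitial-like cells, at 16.5 and 43.0 CPM, had thinned shares of 2.94% and 4.49% (8.99% and 10.3%). The ff share was at the lymphocyte-like one and was not told apart from background. The GF share was close to the lymphocyte-like one, but 18 of 1890 GF cells had at least 10 UMIs and held 47.3% of the class's Igfbp3. The lymphocyte-like level itself was 48.5 CPM for ff, above the adventitial-like level, and 16.6 CPM for GF, below it. Col1a1 was likewise higher in the ff lymphocyte-like cells, at 302 against 24.0 CPM in GF.

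Clusters rich in Igfbp3 were mostly poor in Igfbp6, as the plot of both genes by cluster shows. In ff the Col6a5-led cells had the most Igfbp3 at 1399 CPM with 148 CPM of Igfbp6, and the Efhd1-led cells the least at 8.96 CPM with 2202 CPM of Igfbp6. In GF the same 2 clusters stood at 2753 CPM of Igfbp3 with 92.9 of Igfbp6, and at 39.8 with 2622. Over 34 profiles, 17 clusters (the 16 and the smooth muscle-like cells) in each library, Pearson's r between them on the log2(CPM + 1) scale was -0.64, and -0.48 within ff and -0.75 within GF. Profiles of 1 library share its depth and free RNA, so r is a description. The Wif1-led and Fgfbp1-led Foxl1-high-like clusters were low in Igfbp6 without being among the highest in Igfbp3, at 136 and 421 CPM of Igfbp3 in ff and GF for the former and 208 and 400.2 for the latter.

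**Figure D2:**
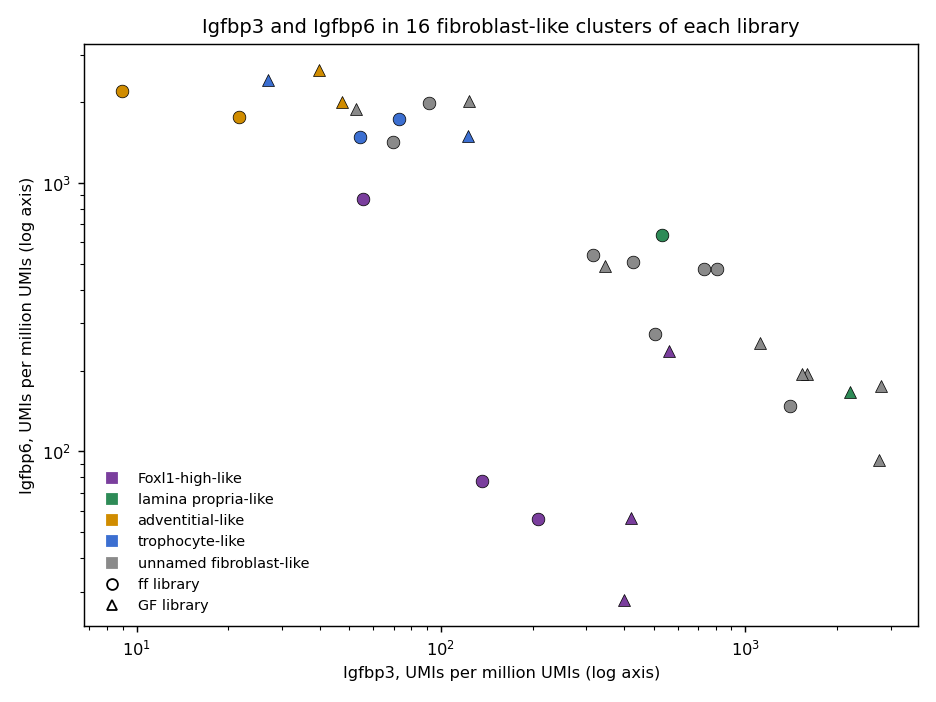
Igfbp3 (x axis) against Igfbp6 (y axis), both in UMIs per 1000000 UMIs on log axes, for 16 fibroblast-like clusters in the ff (circles) and GF (triangles) libraries, coloured by class. Adventitial-like and trophocyte-like clusters lie at the upper left, lamina propria-like and most unnamed clusters at the lower right, and Foxl1-high-like clusters mostly below both.

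Bases before the start sites of Igfbp3, Igfbp4 and Igfbp6 are shown because these members had high levels in some classes and low levels in others in both libraries. The 250 bases before each RefSeq start in GRCm38.p6 lie at chr11:7213924-7214173 (minus strand), chr11:99040994-99041243 (plus strand) and chr15:102143936-102144185 (plus strand), and capitals mark matches to the motifs searched.
Igfbp3: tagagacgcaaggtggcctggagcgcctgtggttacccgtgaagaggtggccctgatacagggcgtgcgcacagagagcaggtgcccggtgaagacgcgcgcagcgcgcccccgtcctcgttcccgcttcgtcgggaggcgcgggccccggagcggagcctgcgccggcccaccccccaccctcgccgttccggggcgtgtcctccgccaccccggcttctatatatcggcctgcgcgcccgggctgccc
Igfbp4: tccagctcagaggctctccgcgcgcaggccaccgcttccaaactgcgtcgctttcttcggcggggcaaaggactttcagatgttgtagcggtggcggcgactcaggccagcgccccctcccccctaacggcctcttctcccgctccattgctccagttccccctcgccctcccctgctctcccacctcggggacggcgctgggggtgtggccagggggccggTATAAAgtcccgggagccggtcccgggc
Igfbp6: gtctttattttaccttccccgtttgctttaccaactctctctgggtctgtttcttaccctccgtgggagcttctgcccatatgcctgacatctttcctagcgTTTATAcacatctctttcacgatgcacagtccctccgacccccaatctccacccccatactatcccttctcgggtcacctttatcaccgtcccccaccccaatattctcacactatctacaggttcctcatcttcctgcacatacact
The motifs were TATAAA (core promoter box), GGGCGG (GC box) and CACGTG (E-box), each searched on both strands; none of these letters overlap another motif's match here. They occur in 12.4%, 32.7% and 6.02% of 32851 windows of the same length. Igfbp4 had TATAAA on the gene's strand, its first base 28 bases before the start, and Igfbp6 had it on the opposite strand, with the capitals starting 148 bases before the start. The Igfbp6 window ends at 102144185, upstream of the gene start of 102144362 given above. Those of Igfbp3 and Igfbp4 adjoin the gene positions given above, so the Igfbp6 bases are not placed alike. Igfbp3 held none of the 3 motifs, and Igfbp7 held 4 GC boxes. Only these exact letters were searched, so variants such as the tatatat near the end of the Igfbp3 bases were not counted. The GC content was 73.2% for Igfbp3, 69.2% for Igfbp4 and 49.6% for Igfbp6. A match is a description of letters and not a binding site.

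Igfbp5, which binds growth factors and matrix and is cut by the protease pappalysin, had most of its UMIs in few cells. The gene is at chr1:72857932-72874884 on the minus strand. Its pool level was 353 CPM for ff and 341 CPM for GF, a log2 ratio of -0.05 that was 0.49 over the named clusters alone. Cells with at least 10 Igfbp5 UMIs were 9.46% of the ff pool and 6.51% of the GF pool, yet held 61.9% and 60.1% of its UMIs. Igfbp3 was close to this in ff, where 11.1% of pool cells held 59.6% of its UMIs, but in GF these were 27.7% and 81.6%. The Col6a5-led cells were the richest fibroblasts at 1679 CPM for ff and 929 CPM for GF. Outside the pool, 41 ff and 53 GF lymphatic endothelium-like cells stood higher still, at 1853 CPM for ff and 3306 CPM for GF, and cells like the interstitial cells of Cajal, the gut pacemakers, stood at 1149.7 and 1030.0 CPM.

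Between libraries Igfbp5 had the highest class ratio toward GF of any member. Foxl1-high-like cells stood at 39.0 CPM for ff (36.2 to 41.8) and 254 CPM for GF (243 to 266), a log2 ratio of 2.67. All 3 of their clusters shared this direction, from 2.50 in the Wif1-led to 3.51 in the Fgfbp1-led cells. Few cells carried it. In GF, 38 of 1041 Foxl1-high-like cells had at least 10 UMIs and held 83.7% of the class's Igfbp5, and 1 cell had 227. In ff, 20 of 2114 cells held 69.6%. The thinned share of Foxl1-high-like cells with a UMI was 2.76% in ff and 8.38% in GF (6.43% and 14.2%), against 3.45% and 0.987% of lymphocyte-like cells. The ff share was at its reference and the GF share above its own, but the reference itself was higher in ff. Lamina propria-like cells, here the Cd36-led cluster, had the other order, 212 CPM for ff and 118 CPM for GF and a log2 ratio of -0.84. The ratio of the class turned to 0.19 when the cells were clustered more finely. Adventitial-like and trophocyte-like cells differed little as classes, with log2 ratios of -0.10 and -0.16. Within the adventitial-like class the ratio was -0.56 in the Pi16-led and -0.11 in the Efhd1-led cluster, which made up different shares of it in the 2 libraries. Under finer clustering (Leiden resolution 2) the trophocyte-like ratio was -0.60.

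Igfbp2, the gene next to Igfbp5, 5457 bases away at chr1:72824503-72852474 on the plus strand, was almost absent. It gave 15 UMIs in the ff pool and 22 in the GF pool, 0.142 and 0.252 CPM, too few for a ratio by the minimum of 50 UMIs. Outside the pool, 11 GF UMIs came from smooth muscle-like cells, where ff had 0, which by 3 counts leaves room for at most 1.74 CPM.

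The make-up of the binding protein UMIs differed by class. Adventitial-like cells were led by Igfbp6, at 44.7% of binding protein UMIs in ff and 47.2% in GF. Trophocyte-like cells of ff were split almost evenly between Igfbp4 (30.5%), Igfbp6 (31.2%) and Igfbp7 (32.6%), while in GF Igfbp7 held 46.7%. In lamina propria-like cells the share of Igfbp3 was 8.33% in ff and 26.7% in GF, and that of Igfbp6 10.0% and 2.01%. Shares sum to a whole, so a gain in 1 member lowers the others.

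**Figure D3:**
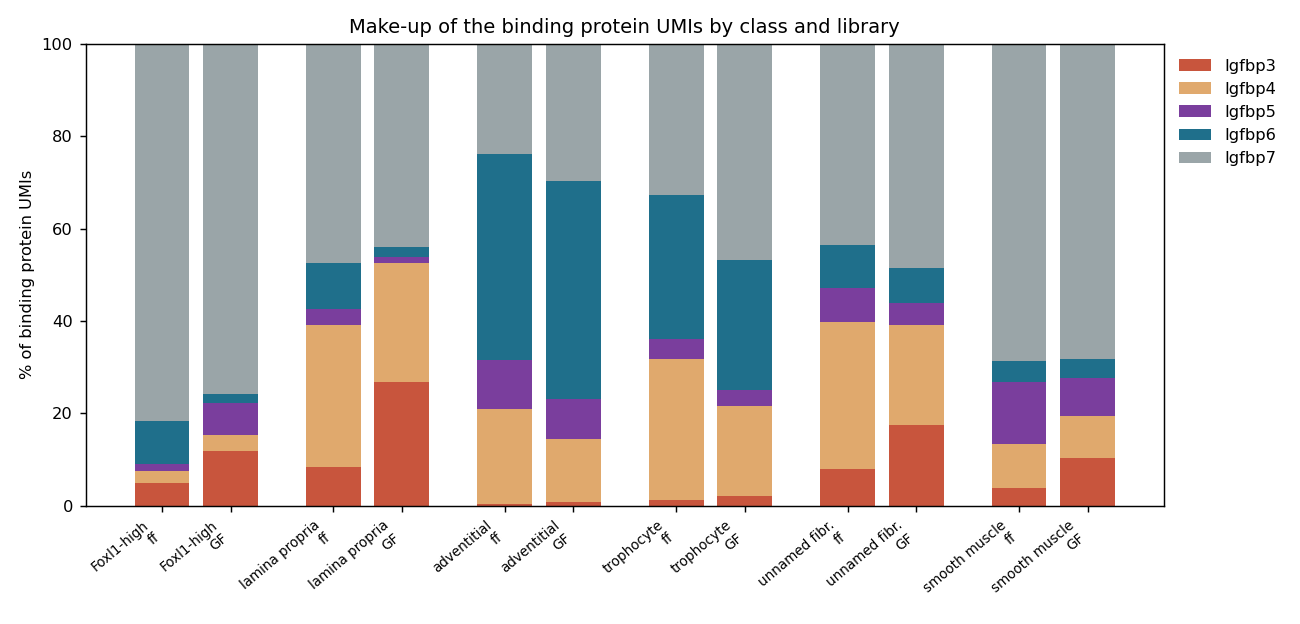
Percent of binding protein UMIs that each of 5 members makes up (stacked bars from 0 to 100%) in 6 classes of cells, ff beside GF; Igfbp2 is too rare to see. Igfbp7 fills most of the Foxl1-high-like and smooth muscle-like bars, Igfbp6 the largest stretch of the adventitial-like bars, and the Igfbp3 stretch is wider in GF in every class.

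**Figure D4:**
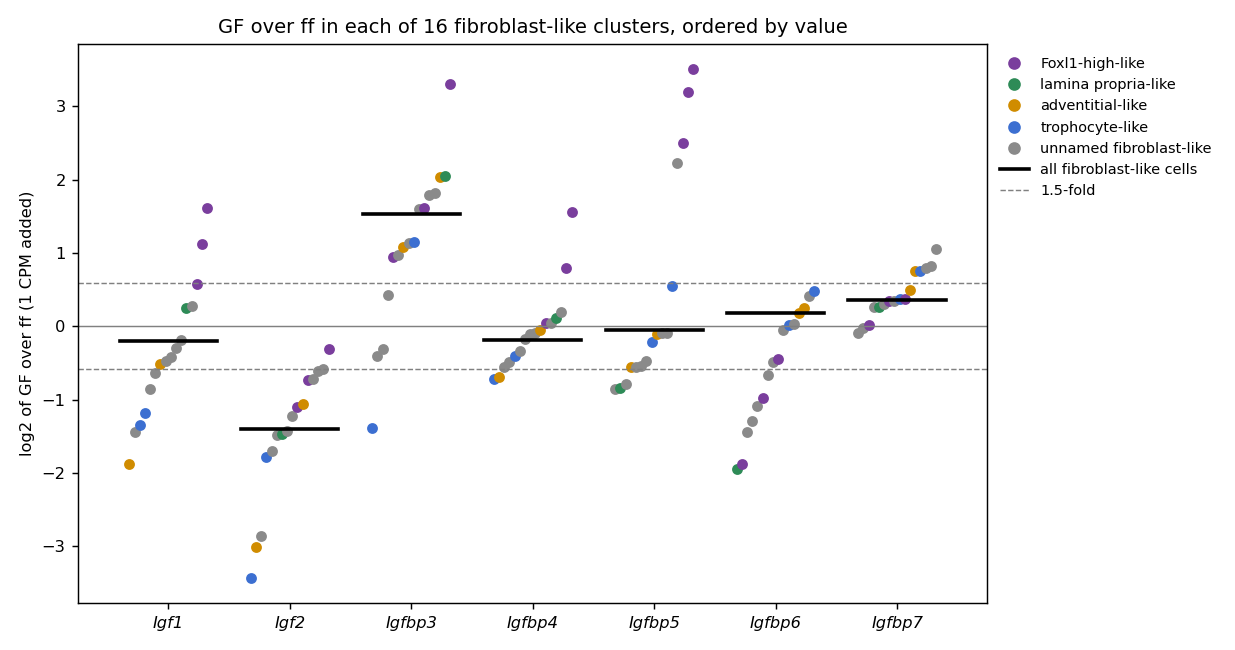
Log2 of GF over ff (y axis, 1 CPM added) for 7 members in 16 fibroblast-like clusters, 1 point per cluster coloured by class and ordered by value within a member, with a black line for the whole pool and dashed lines at 1.5-fold. Igf2 points all lie below 0, Igfbp3 points lie above 0 in 13 clusters, and Foxl1-high-like clusters are the highest 3 points for Igf1.

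The receptor genes Igf1r, Igf2r and Insr were expressed in the pool, and none differed by 1.5-fold between the libraries. Igf1r, the signalling receptor, stood at 153 CPM for the ff pool and 169.5 CPM for the GF pool, Igf2r, which clears Igf2, at 78.6 and 64.2, and the insulin receptor gene Insr at 29.98 and 29.0. Insrr, an orphan relative of the insulin receptor, gave 24 and 44 UMIs. By class, Igf1r was lowest in Foxl1-high-like cells at 57.4 and 68.8 CPM, the cells that also had the least Igfbp4, and reached 170.0 and 233 in lamina propria-like and 240.3 and 237 in smooth muscle-like cells.

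Of 57 other pathway genes listed, 56 were found and 48 measured in the pool. At least 1.5-fold higher in GF was 1 of them, and 5 were at least 1.5-fold lower, beside the 4.91% and 5.49% of all genes, with a median log2 ratio of -0.06. The higher one was Stat5a, a transcription factor downstream of the growth hormone receptor, at 13.2 CPM for ff and 24.5 CPM for GF (0.85) and higher in GF in all 5 fibroblast classes. The lowest ratios were those of Kazald1, a secreted relative of the binding proteins, at 31.3 and 9.19 CPM (-1.67), Htra1, a secreted protease with a binding-protein-like domain, at 606 and 337 CPM (-0.84), and the imprinted gene Mest at 11.2 and 6.29 CPM (-0.74). The other 2 were Esm1 (-0.71) and Plagl1 (-0.64). After Stat5a the highest ratios were those of Stc2 (0.55), a stanniocalcin that blocks pappalysin, and of the imprinted cell cycle inhibitor Cdkn1c (0.51). None of the 18 measured adaptor and kinase genes reached 1.5-fold.

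Genes of proteases and protease inhibitors also differed by class. Pappa, Stc1 and Prss23 were chosen after their values were seen. Pappa, which encodes pappalysin, the protease that cuts the proteins of Igfbp4 and Igfbp5, stood at 236 CPM for ff and 589 CPM for GF Foxl1-high-like cells, the class lowest in Igfbp4. It stood at 141 and 177 CPM in lamina propria-like cells, and at 2.80 and 2.61 in adventitial-like cells. Stc1, the other stanniocalcin, gave 55 of its 71 ff and 57 of its 88 GF pool UMIs in Foxl1-high-like cells. Prss23, a secreted serine protease, had the reverse pattern, with 1162 and 599 CPM in trophocyte-like cells, 922 and 832 in adventitial-like cells and 15.6 and 10.2 in Foxl1-high-like cells.

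Each member was compared with 11487 genes over the same 34 profiles, and up to 3 genes most like it are named with Pearson's r as a description. They were Aoc3 (0.69), Zfp467 (0.67) and Lrig1 (0.66) for Igf1, and Zfp516 (0.84), Mrps12 (0.78) and Pgrmc1 (0.78) for Igf2, whose profiles rest on few UMIs. For Igfbp3 they were Hcar1 (0.91), Ripply3 (0.91) and Rarres2 (0.89), and for Igfbp4 Hsd11b1 (0.94), Gda (0.93) and Igf2bp2 (0.92). For Igfbp5 they were Ncoa7 (0.70), Chst7 (0.70) and Fam181b (0.69), for Igfbp6 Sgms2 (0.93) and Cd81 (0.90), and for Igfbp7 Pde1b (0.79), Scarf2 (0.75) and Gstt3 (0.75). Igfbp3, Igfbp4 and Igfbp6 had close companions, with r of at least 0.89, whereas the best match of Igf1 or Igfbp5 reached 0.69 and 0.70. Cd81, a surface protein used to define trophocytes, was among the markers that named clusters. Among the members themselves, Igfbp4 and Igfbp5 had r of 0.85 within ff and 0.20 within GF, and Igfbp3 and Igfbp7 0.92 and 0.42, over 17 profiles each.

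Markers of other cell types were low in the pool and are given for the ratios above; their part in these was not tested. Summed over each list, 8 blood endothelium markers stood at 14.2 CPM for ff and 35.7 in GF, 7 pericyte markers at 78.3 and 68.2, and 8 smooth muscle markers at 482 and 336. Lymphocyte, myeloid, epithelial, glial and lymphatic lists lay between 0.624 and 18.6 CPM, and 1 of 7 T or innate lymphoid markers was at 0 in ff. In the pool, fewer cells of a type and less RNA per cell cannot be told apart. Weighting GF clusters by ff shares and values within classes and clusters narrow this. A class can still differ between the libraries in its mix of clusters, as the adventitial-like cells did.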

How the data were processed

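The authors deposited 1 table of raw UMI counts per library, genes by cell barcodes, made with Cell Ranger 6.0.0 on mm10 per the submitters' processing notes; the annotation release was not named. Barcodes numbered 13704 (ff) and 16388 (GF), with 119866589 and 105331294 UMIs, and the lowest barcode held 500, so a filter had been applied before deposit. Ensembl identifiers were matched to symbols for 32158 of 32285 genes, and gene positions are those of GRCm38.

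Cells under 500 genes or 1000 UMIs, or over 10% mitochondrial UMIs, were dropped, and Scrublet removed 4.24% (ff) and 5.09% (GF) as doublets. Both libraries were clustered together (scanpy 1.11.5, 2000 variable genes, 30 principal components, Leiden resolution 1 with leidenalg 0.10.2) with the 8 members and the pathway list barred from the variable genes, which gave 27 clusters. Clusters were named from marker lists, and thresholds for a name were set after the data were seen. A mixed myeloid-like cluster led by Jchain was not used.

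Counts were summed per library and class and scaled to CPM. A gene counted as measured in the pool with at least 50 UMIs over both libraries. Intervals are exact 95% Poisson or binomial intervals (scipy 1.17.1), and the steps were tested on simulated data. No test was run, since each group had 1 library. The alternatives tried were other scaling, pseudocounts of 0 or 10 CPM, UMI minimums, a stricter cell filter, doublets kept, thinned cells, single-cell gating, equal composition, named clusters only, and resolutions 0.5 and 2. Beyond the members, the rule named the receptors, the 3 highest and 3 lowest pathway genes with at least 200 UMIs, and the 3 genes most like each member; 1 such gene and the values of 1 cluster are not reported here. Members, lists and rules were chosen with earlier results of these data known. Promoter bases come from RefSeq tables of GRCm38.p6.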

Additional observations from a re-analysis of the deposited data

Results flagged for a closer look

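Igf1 moved in opposite directions between the libraries in different classes, although its pool levels were close. The log2 ratio of GF over ff was 1.17 in Foxl1-high-like cells, -1.07 in adventitial-like cells, which were mostly Pi16-led in ff and Efhd1-led in GF, and -1.20 in trophocyte-like cells. Igfbp5 had a ratio of 2.67 in Foxl1-high-like cells and of -0.84 in lamina propria-like cells. With 1 library per group, the difference between these classes was not tested.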

How the results depend on the processing

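Igfbp3 higher and Igf2 lower stayed the only pool ratios of at least 1.5-fold under all 11 alternatives, with Igfbp3 between 1.41 and 1.92 and Igf2 between -1.78 (named clusters only) and -0.62 (10 CPM added). The Igfbp6 pool ratio turned to -0.16 when GF clusters took the ff shares, and over the named clusters alone that of Igfbp4 turned to 0.12 and that of Igfbp5 to 0.49. Of the pathway list, 0 to 4 genes were higher and 2 to 8 lower, the extremes coming from 10 CPM added and from no pseudocount. Finer clustering (resolution 2) gave Igfbp5 in lamina propria-like cells a GF over ff ratio of 0.19 and a GF ratio over the other pool cells of 0.11, and Igfbp3 in trophocyte-like cells a GF over ff ratio of -0.26. Counting only main values of at least 1.5-fold, these were 2 sign changes among 114 alternative values within classes and 1 among 246 between classes; smaller values also changed sign, among them Igf1 in ff adventitial-like cells over the other pool cells, -0.37 at resolution 0.5. The cause was not tested. With 1 library per group there was no replicate to leave out, and no paired analysis was possible because the libraries carry no replicate numbers. Few UMIs limit Igfbp2 throughout and Igf2 within the GF classes.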
